A study of Mus musculus with 5 samples.

Results

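The long noncoding RNAs Neat1, Malat1, Gas5, Snhg1, Meg3, H19 and Kcnq1ot1 were followed in RNA that came down with anti-c-myc beads and in total RNA of mouse NIH/3T3 cells, an embryonic fibroblast line. They were read through every probe set that the array annotation assigns to 1 of the 7 symbols alone, 35 of the 45101 probe sets on the array. Neat1 and Malat1 had log2 signals above total RNA in all 4 ribonucleoprotein immunoprecipitates (RNP-IPs) on their main probe sets, Gas5 and Snhg1 were split between probe sets above and below total RNA, and Meg3 and Kcnq1ot1 stayed below log2 6 in every array. Between the RNP-IPs labelled induced and those labelled uninduced, 1 probe set, of Malat1, passed the fold and adjusted p limits of the methods. It was lower in the RNP-IPs labelled induced. In the comparison of the methods, which adds total RNA to the uninduced-labelled group, 0 of the 35 passed.

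The study searched for RNAs bound by AUF1 p42, an isoform of the AU-rich element binding protein encoded by Hnrnpd. The 5 arrays were 2 RNP-IPs labelled induced, from cells given 1 nM mifepristone for 24 h to express myc-AUF1 p42, then 2 RNP-IPs labelled uninduced, from the same cells without mifepristone, and 1 array of total RNA, for which no treatment of its own is given. All cells carried both vectors of the inducible system, pBSwitch and pSLHGC-MYC-AUF1 p42, brought in by retrovirus and selected earlier with blasticidin while mifepristone was present, also in the controls. The RNP-IPs were made from a cleared lysate while the total RNA did not pass over beads. An equal mass of RNA was amplified and labelled from each sample, so a signal is a share of that RNA. More of one RNA cannot be told apart from less of the others. The methods give a lower RNA concentration for the RNP-IPs of control cells. A lower share in the induced-labelled RNP-IPs is thus not necessarily a lower amount. The 2 RNP-IPs of each group were independent precipitations, but separate cultures are not stated, so p-values measure the spread between these precipitates, which may be technical. The total RNA array has no replicate.

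Long noncoding RNAs act as RNA, without a protein product. Neat1 is the scaffold of paraspeckles, nuclear bodies that hold RNA-binding proteins, and Malat1 is an abundant RNA of nuclear speckles, where splicing factors gather. Gas5 and Snhg1 are host genes of box C/D small nucleolar RNAs (snoRNAs), which are cut out of their introns, while the spliced exons leave the nucleus and are largely removed by nonsense-mediated decay. Meg3, H19 and Kcnq1ot1 come from imprinted loci, where 1 parental allele is transcribed. Malat1, Neat1 and Snhg1 lie on mouse chromosome 19, Gas5 on chromosome 1, H19 and Kcnq1ot1 on chromosome 7 and Meg3 on chromosome 12.

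Host genes of snoRNAs are known for transcripts of the terminal oligopyrimidine class, which begin with a run of pyrimidines (C or T), so the first bases of 4 host transcripts are shown beside those of Malat1. Each window runs from 10 bases before to 20 bases after a start in RefSeq on GRCm38.p6, on the strand of the transcript, and the capitals mark the longest unbroken run of C or T that reaches into the first 20 bases, searched on that strand alone. The windows are chr1:161035156-161035185 (plus strand) for Gas5, chr19:8723477-8723506 (plus strand) for Snhg1, chr9:88522878-88522907 (minus strand) for Snhg5, chr3:123508317-123508346 (minus strand) for Snhg8 and chr19:5802653-5802682 (minus strand) for Malat1.
Gas5: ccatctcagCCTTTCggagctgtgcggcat
Snhg1: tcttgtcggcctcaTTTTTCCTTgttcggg
Snhg5: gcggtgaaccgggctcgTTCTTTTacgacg
Snhg8: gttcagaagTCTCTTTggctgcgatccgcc
Malat1: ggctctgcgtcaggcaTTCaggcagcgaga
The run had 6 bases in Gas5, 9 in Snhg1, 7 in Snhg5, 7 in Snhg8 and 3 in Malat1. It spanned the listed start in Gas5 and Snhg8, beginning 1 base before it, but began only at base 5 of the transcript in Snhg1, base 8 in Snhg5 and base 7 in Malat1, so in these 3 it was not the first bases. A run of at least 6 was found at 11 of 21 starts of 19 snoRNA host genes and at 26.1% of all 32851 starts in the table, where the median was 4. Both listed starts of Snhg17 mark the same run, which is thus counted at each. The count also takes in runs that begin late, as at base 14 in Dancr. The other listed start of Gas5 had a run of 3. All 4 hosts shown had a run of at least 6 at the start drawn. Other hosts above total RNA in all 4 RNP-IPs had runs of 2 (Snhg10), 3 (Dleu2), 4 (Zfas1) and 9 (Snhg12). Of the 7 members 5 had a start in the table, and this definition of a run was chosen after the sequences had been seen, so the match is a description of the letters.

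Hnrnpd was looked at first, because it encodes the protein expressed from the vector. Its probe set 1425142_a_at read log2 6.72 and 7.39 in the induced-labelled RNP-IPs, 11.35 and 11.85 in the uninduced-labelled ones and 10.60 in total RNA. In the same order 1457568_at read 3.71 and 3.61, 8.39 and 8.52, and 7.03. On 1458273_at the values were 2.40 and 2.64, 5.15 and 4.39, and 3.94. This direction is opposite to that of an induced gene. A signal in an RNP-IP is a share of precipitated RNA, though, and whether the probes read the vector's insert is unknown here. The values thus do not settle the labels, and the directions below follow them as deposited. All 8 fibroblast markers were above log2 6 (7.43 to 13.42 over the 5 arrays), the measured blood and endothelial markers were below log2 5, and so were 3 of 4 epithelial and 3 of 4 neural markers. The exceptions were Epcam (6.66 to 6.99 over the 5 arrays) and Map2, which read 4.01 and 4.80 in the induced-labelled RNP-IPs, 6.60 and 6.81 in the uninduced-labelled ones and 6.72 in total RNA. RNP-IP 1 labelled induced and RNP-IP 2 labelled uninduced resembled each other in the 5′ control probes, with Actb 5′ minus 3′ differences of -2.46 and -3.59, against -5.34 in RNP-IP 2 labelled induced, -6.70 in RNP-IP 1 labelled uninduced and -5.24 in total RNA. The part of this difference in the values below was not tested.

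A probe set below log2 5 is called near background here, and one above log2 6 in at least 1 array is called bright. A probe set can be bright through RNP-IPs alone or through total RNA alone. Its direction against total RNA is then partly set by this filter. Of the 35 member probe sets 15 were bright and 16 lay below log2 5 in all 5 arrays. The bright ones were 1 of 2 for Neat1, 6 of 7 for Malat1, 4 of 4 for Gas5, 4 of 5 for Snhg1, 0 of 11 for Meg3 and 0 of 6 for Kcnq1ot1. H19 had no probe set of its own.

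**Figure D1:**
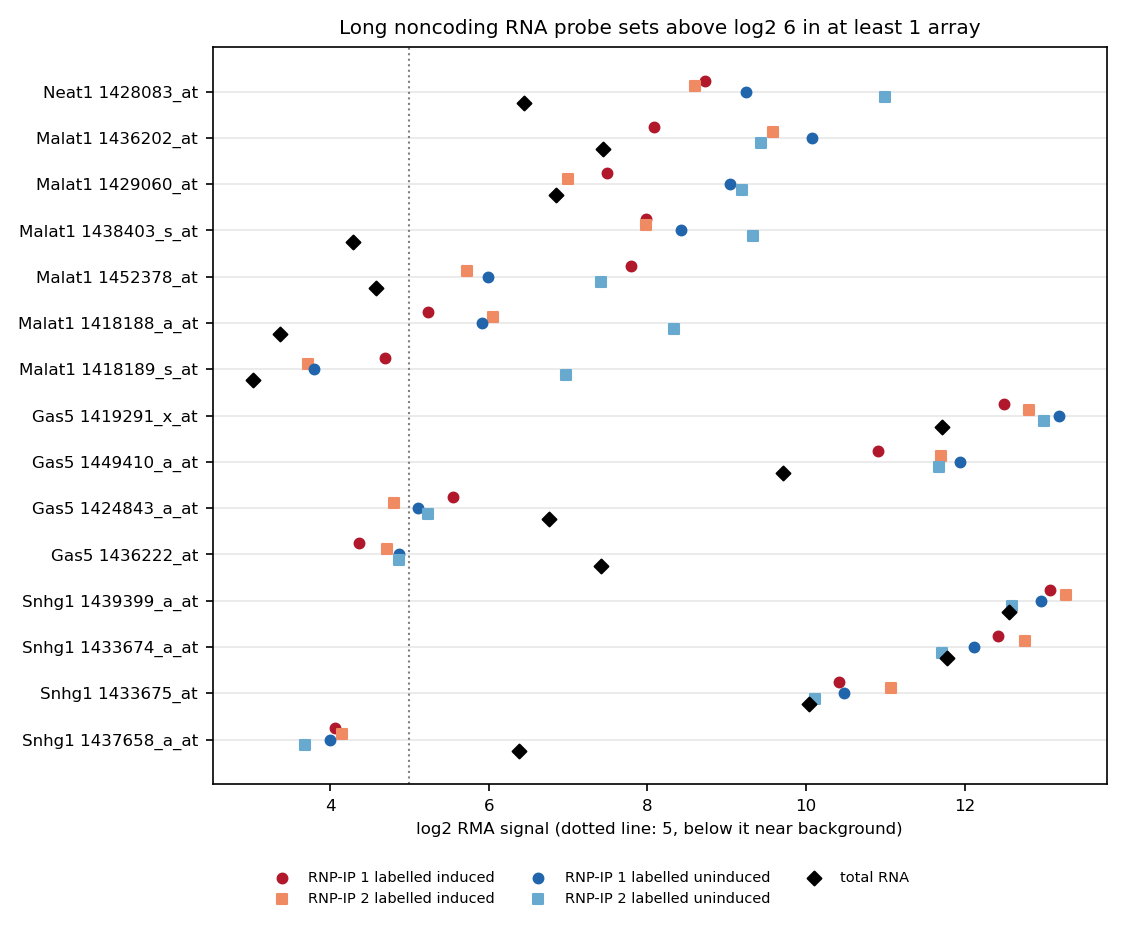
Log2 RMA signal (x axis) of the 15 bright member probe sets (y axis), with 1 point per array, coloured by RNP-IP or total RNA and set slightly apart vertically so that equal values stay visible. The total RNA diamond is left of all 4 RNP-IPs for Neat1 and for all 6 bright Malat1 probe sets, and right of them for 2 probe sets of Gas5 and 1 of Snhg1. The filter for bright probe sets favours such a direction where RNP-IPs alone or total RNA alone passed it.

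Neat1 had 1 bright probe set, 1428083_at, which read log2 8.72 and 8.59 in the induced-labelled RNP-IPs, 9.24 and 11.00 in the uninduced-labelled ones and 6.44 in total RNA. All 4 RNP-IPs were above total RNA, RNP-IP 2 labelled uninduced was the highest, and the 2 labelled groups did not overlap. The log2 differences from total RNA were 2.28 and 2.15 for the induced-labelled RNP-IPs and 2.80 and 4.55 for the uninduced-labelled ones, with a mean of 2.94 (7.70-fold). The other probe set, 1442881_at, read 3.96 to 4.26 over all 5 arrays and thus stayed near background.

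Malat1 was read by 7 probe sets, and on the 6 bright ones all 4 RNP-IPs were above total RNA. Of these, 1438403_s_at, 1452378_at, 1418188_a_at and 1418189_s_at were bright through RNP-IPs alone, so the filter favoured this direction. The probe set with the highest mean, 1436202_at, read log2 8.08 and 9.58 in the induced-labelled RNP-IPs, 10.07 and 9.43 in the uninduced-labelled ones and 7.44 in total RNA. The mean log2 difference from total RNA was 1.86 (3.62-fold), and the 2 labelled groups overlapped. On 1429060_at the values were 7.49 and 7.0 in the induced-labelled RNP-IPs, 9.03 and 9.19 in the uninduced-labelled ones and 6.85 in total RNA. Here the induced-labelled RNP-IPs stood close to total RNA, 0.64 and 0.15 above it on the log2 scale, while the uninduced-labelled ones were 2.18 and 2.34 above it.

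Malat1 on 1438403_s_at read log2 7.99 in both induced-labelled RNP-IPs, 8.42 and 9.32 in the uninduced-labelled ones and 4.28 in total RNA. The suffix _s_at marks probes that can be shared by several transcripts. Total RNA was near background here and on the next 3 probe sets, where signals hold little information on a fold, so only the direction is read. On 1418188_a_at the induced-labelled RNP-IPs read 5.23 and 6.05, the uninduced-labelled ones 5.91 and 8.34 and total RNA 3.36. RNP-IP 2 labelled uninduced was again the highest, as it was on 1418189_s_at (4.69 and 3.72 in the induced-labelled RNP-IPs, 3.80 and 6.97 in the uninduced-labelled ones, 3.03 in total RNA). On 1452378_at RNP-IP 1 labelled induced and RNP-IP 2 labelled uninduced were high (7.79 and 7.41), RNP-IP 2 labelled induced and RNP-IP 1 labelled uninduced lower (5.73 and 6.00), and total RNA lowest at 4.58. This is the same split as in the 5′ control probes. The last probe set, 1427285_s_at, read 3.47 to 4.96.

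Gas5 had the brightest signals among the members together with Snhg1, and its 4 probe sets fell into pairs of opposite direction against total RNA. On 1419291_x_at the induced-labelled RNP-IPs read log2 12.49 and 12.81, the uninduced-labelled ones 13.18 and 12.99 and total RNA 11.71, a mean log2 difference of 1.16 from total RNA (2.23-fold). All 4 RNP-IPs were above total RNA, within a range narrower than for Neat1. On 1449410_a_at the values were 10.91 and 11.70 in the induced-labelled RNP-IPs, 11.94 and 11.68 in the uninduced-labelled ones and 9.71 in total RNA (3.60-fold above it in the mean).

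The other pair of Gas5 probe sets ran the other way. On 1436222_at the induced-labelled RNP-IPs read log2 4.37 and 4.72, the uninduced-labelled ones 4.86 and 4.86, and total RNA 7.41. All of these RNP-IPs were near background, so no fold is given. On 1424843_a_at the induced-labelled RNP-IPs read 5.55 and 4.81, the uninduced-labelled ones 5.11 and 5.24 and total RNA 6.75, 2.98-fold above them. Total RNA was above all 4 RNP-IPs on both. Both were bright through total RNA alone, so the filter favoured this direction. Which exons or introns of Gas5 each probe set reads was not analysed here.

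Snhg1 showed the same division. Its probe set with the highest mean, 1439399_a_at, read log2 13.07 and 13.28 in the induced-labelled RNP-IPs, 12.96 and 12.59 in the uninduced-labelled ones and 12.56 in total RNA. The RNP-IPs were above total RNA by 0.04 to 0.72 on the log2 scale, the lowest of them, RNP-IP 2 labelled uninduced, being level with it. On 1433674_a_at the values were 12.41 and 12.76 in the induced-labelled RNP-IPs, 12.11 and 11.71 in the uninduced-labelled ones and 11.78 in total RNA, with 3 of 4 RNP-IPs above it. On 1433675_at they were 10.41 and 11.07 in the induced-labelled RNP-IPs, 10.48 and 10.11 in the uninduced-labelled ones and 10.03 in total RNA.

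Snhg1 was below total RNA in all 4 RNP-IPs on its remaining probe sets. On 1437658_a_at the induced-labelled RNP-IPs read log2 4.06 and 4.16, the uninduced-labelled ones 4.00 and 3.69 and total RNA 6.39. On 1454703_x_at they read 4.66 and 5.02, the uninduced-labelled ones 4.40 and 4.22 and total RNA 5.86, no array reaching log2 6. The RNP-IPs were near background on the first and all but 1 on the second, so no fold is given for either. The first was bright through total RNA alone. The probe sets of Gas5 and Snhg1 that were brightest in the RNP-IPs were thus not the ones on which total RNA stood above them.

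Meg3 read log2 2.98 to 5.08 over 11 probe sets and 5 arrays, and 10 of the 11 were below log2 5 throughout. Kcnq1ot1, the antisense RNA of the Kcnq1 domain, read 2.58 to 5.62 over 6 probe sets. Its highest values were on 1458161_at, with 3.99 and 4.79 in the induced-labelled RNP-IPs, 5.05 and 5.62 in the uninduced-labelled ones and 4.95 in total RNA. Neither RNA was bright in any array, so no order of their levels is read here. H19 shares its only probe set, 1448194_a_at, with Mir675, a microRNA made from it, and this read 4.57 and 4.47 in the induced-labelled RNP-IPs, 4.57 and 5.85 in the uninduced-labelled ones and 4.43 in total RNA.

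The members were chosen by their measured signals against total RNA, Neat1 being above it in all RNP-IPs, so that comparison is given without a test. Of the 35 member probe sets 13 were above total RNA in all 4 RNP-IPs and 5 below in all 4, beside 21.1% above and 17.9% below over the 45101 probe sets. A difference of at least 2-fold in all 4 RNP-IPs was seen above total RNA for 5 of the 35 and below it for 3, beside 0.761% above and 1.91% below over all probe sets. Those 2-fold above were Neat1 1428083_at, Gas5 1449410_a_at and Malat1 1438403_s_at, 1452378_at and 1418188_a_at. On these Malat1 probe sets total RNA was near background. Only 12175 of the 45101 probe sets were bright, and RMA compresses folds near background. With members chosen on this contrast and several probe sets of 1 gene, no excess is read from these counts.

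**Figure D2:**
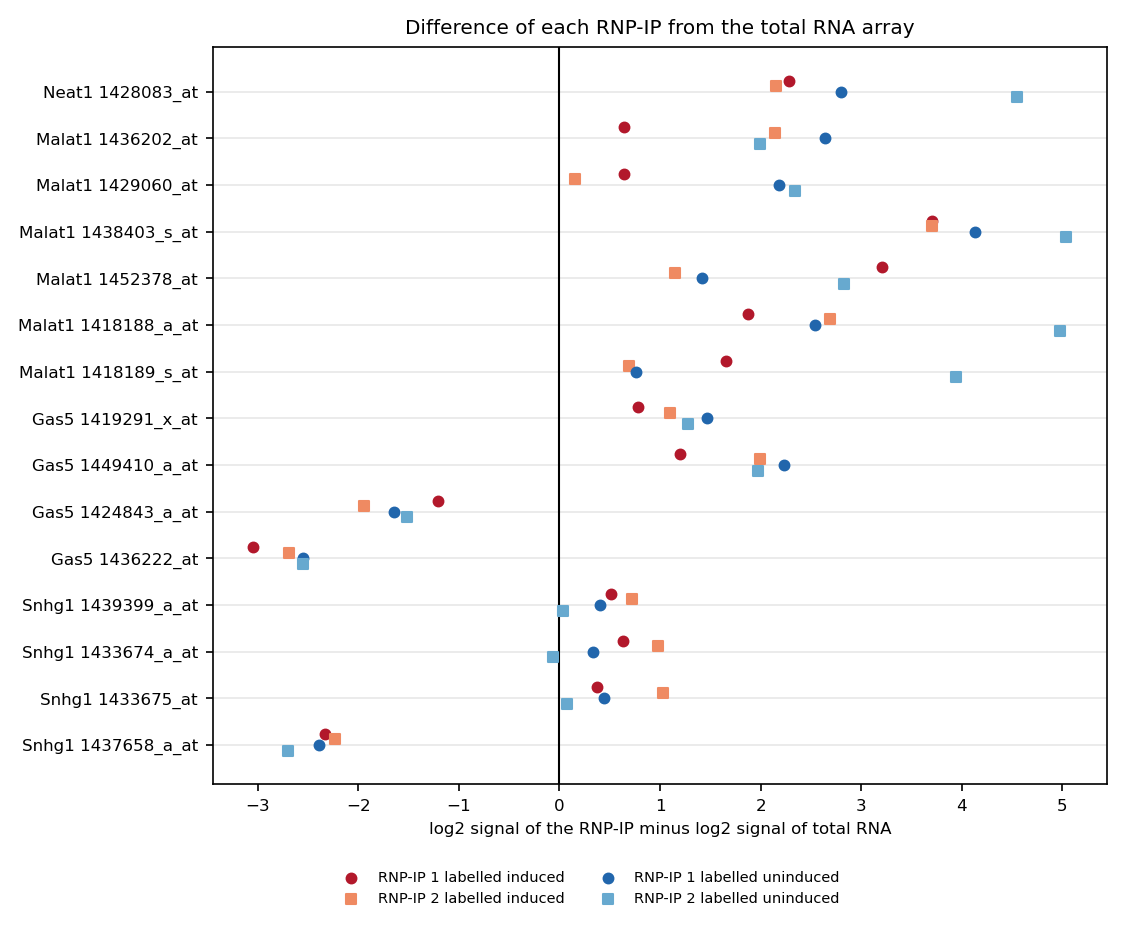
Log2 signal of each RNP-IP minus that of the single total RNA array (x axis) for the 15 bright member probe sets (y axis), with 1 point per RNP-IP. Neat1 lies at 2.15 to 4.55 in all 4 RNP-IPs, while 1436222_at and 1424843_a_at of Gas5 and 1437658_a_at of Snhg1 lie below 0 in all 4. These Gas5 and Snhg1 probe sets were bright through total RNA alone.

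The question of the design, which RNAs differ between RNP-IPs with and without induction, was tested by limma on all 45101 probe sets. A probe set was called by the limits of the methods, with a minimum fold of 3 and an adjusted p (Benjamini and Hochberg) under 0.5, at which many calls can be false. Of the 35 member probe sets 0 were called higher and 1 lower in the induced-labelled RNP-IPs, beside 1.23% called higher and 1.91% called lower over all probe sets. At an adjusted p under 0.05 limma called 0 probe sets of the array, although 5202 had an unadjusted p under 0.05, 1 of them a member. With the 12175 bright probe sets alone 355 passed this limit, 0 of them members. The median log2 difference was -0.02 over the members and 0.0004 over all probe sets. The share of members called is near the background.

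The member called was Malat1 on 1429060_at, which averaged log2 7.25 ± 0.35 in the induced-labelled RNP-IPs and 9.11 ± 0.11 in the uninduced-labelled ones (SD, n = 2 each). This is a log2 difference of -1.87 (SE 0.22, 95% interval -2.58 to -1.16, limma adjusted p = 0.178), and the groups did not overlap. The other bright Malat1 probe sets did not pass: 1436202_at differed by -0.92 (95% interval -3.14 to 1.30) and 1438403_s_at by -0.89 (adjusted p = 0.589 from limma), and the 3 with lower means by -1.48 to 0.05. Represented by its probe set of highest mean, 1436202_at, Malat1 as a gene was not called (limma adjusted p = 0.721). Without any single RNP-IP the call on 1429060_at had limma adjusted p of 0.313 to 0.376, under the limit. In these fits, and in all others between the labelled groups that leave out an RNP-IP, 1 array stands for its group. The spread of that group is taken from the other labelled group alone.

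Neat1 differed by -1.46 on 1428083_at (SE 0.73, 95% interval -3.86 to 0.94, limma adjusted p = 0.663) and was not called. The means were log2 8.66 ± 0.09 in the induced-labelled RNP-IPs and 10.12 ± 1.24 in the uninduced-labelled ones (SD, n = 2 each), so the 2 uninduced-labelled RNP-IPs lay farther apart than the group means. Without RNP-IP 1 labelled uninduced the difference was -2.34 with a limma adjusted p of 0.299, under the limit, but the spread was then that of the 2 induced-labelled RNP-IPs alone, and without RNP-IP 2 labelled uninduced it was -0.58.

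Gas5 and Snhg1 differed by less. Gas5 on 1419291_x_at differed by -0.44 (95% interval -0.96 to 0.09, limma adjusted p = 0.52), the groups not overlapping. Snhg1 on 1439399_a_at differed by 0.40 (95% interval -0.19 to 0.99, limma adjusted p = 0.617), and on 1433674_a_at by 0.68 with an adjusted p of 0.467, below the fold limit. Of all 35 member probe sets 6 were higher and 6 lower in both induced-labelled RNP-IPs than in both labelled uninduced, beside 15.5% and 15.8% of all probe sets.

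**Figure D3:**
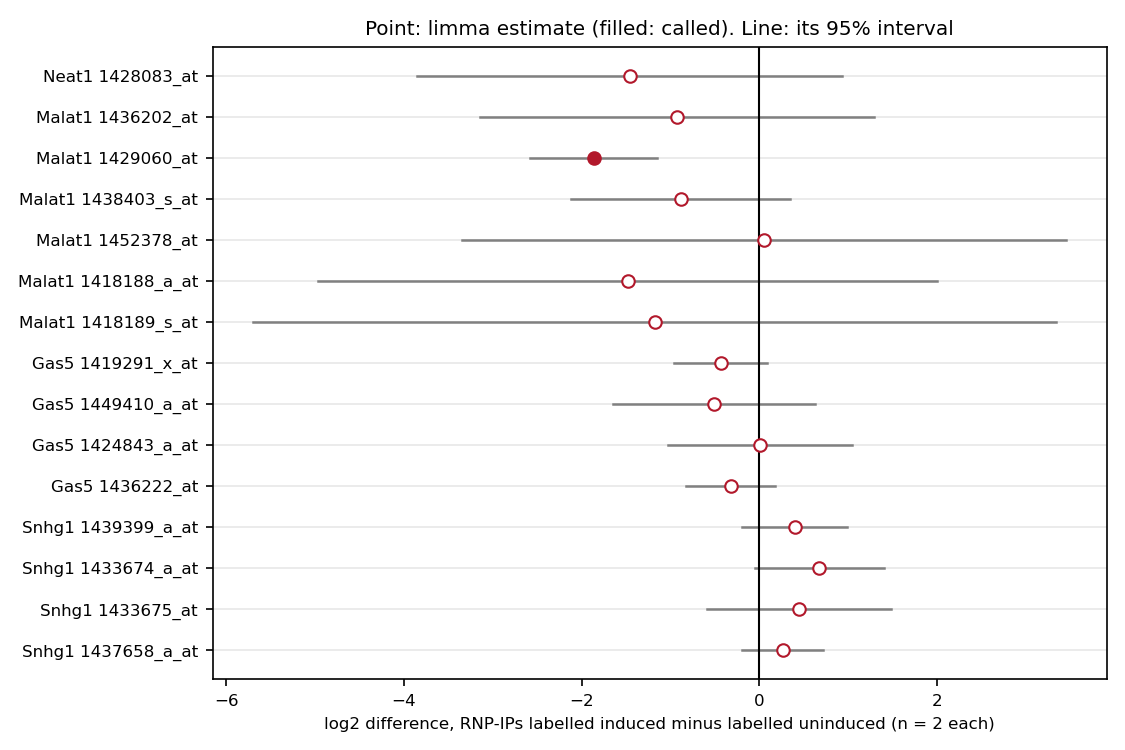
Log2 difference between the induced-labelled RNP-IPs and the uninduced-labelled ones (x axis, n = 2 each) for the 15 bright member probe sets (y axis), with the limma estimate as a point and its 95% interval as a line. The filled point, Malat1 1429060_at at -1.87, is the only one called, and the intervals of all others shown include 0.

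The methods compared the induced-labelled RNP-IPs with a group made of total RNA and the uninduced-labelled RNP-IPs, which shares the total RNA array with the choice of the members. No member was called in it (0 of 35), beside 1.16% higher and 1.66% lower over all probe sets. Neat1 on 1428083_at, with total RNA below and the uninduced-labelled RNP-IPs above the induced-labelled RNP-IPs, differed by -0.24 (SE 1.49), and Malat1 on 1429060_at by -1.11 (SE 0.87). The member with the smallest limma adjusted p, 0.299, was Snhg1 on 1433674_a_at, with a log2 difference of 0.72.

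Of 20 other snoRNA host genes 16 were measured and 12 were bright, and 8 of the 16 were above and 2 below total RNA in all 4 RNP-IPs, beside 20% and 21.3% of 18194 genes. Snhg4 stood farthest above, with log2 10.64 and 11.02 in the induced-labelled RNP-IPs, 11.05 and 10.84 in the uninduced-labelled ones and 9.01 in total RNA. Snhg8, whose first bases are shown above, read 13.47 and 13.30 in the induced-labelled RNP-IPs, 13.19 and 13.16 in the uninduced-labelled ones and 11.90 in total RNA. Snhg5 read 12.59 and 12.88 in the induced-labelled RNP-IPs, 12.10 and 11.71 in the uninduced-labelled ones and 11.54 in total RNA. All of their RNP-IPs were above total RNA. Snhg5, whose first bases are also shown, stood less far above (mean log2 difference 0.78) than Snhg6 (1.19) and Snhg10 (1.03). Dleu2, counted in this list but better known as a microRNA host, was also above total RNA in all 4, at low signals (3.72 to 6.55). Of the bright ones Snhg16 stood farthest below, at 5.49 in both induced-labelled RNP-IPs, 5.23 and 6.00 in the uninduced-labelled and 6.27 in total RNA. Snhg18 was next, at 7.14 and 7.44 in the induced-labelled RNP-IPs, 7.96 and 7.24 in the uninduced-labelled and 7.83 in total RNA.

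Between the labelled groups, 1 of the 16 host genes was called higher and 0 lower, beside 1.38% and 2.65% of genes. This was Snhg3, at log2 8.33 and 7.84 in the induced-labelled RNP-IPs, 4.70 and 5.77 in the uninduced-labelled ones and 6.66 in total RNA. Its log2 difference was 2.85 (SE 0.49, limma adjusted p = 0.249), and the call was lost without RNP-IP 1 labelled induced (adjusted p = 0.516 by limma). Total RNA lay between the 2 groups.

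Of 44 other noncoding RNAs 28 were measured and 7 were bright. Norad, an abundant cytoplasmic RNA that binds Pumilio proteins, was above total RNA in all 4 RNP-IPs, with log2 12.62 and 11.81 in the induced-labelled ones, 12.92 and 13.34 in the uninduced-labelled ones and 11.72 in total RNA. Xist, the RNA that coats the inactive X chromosome, was below it, with 5.70 and 6.31 in the induced-labelled RNP-IPs, 6.42 and 6.42 in the uninduced-labelled ones and 8.64 in total RNA. Tug1 was below total RNA as well, with 6.41 and 6.10 in the induced-labelled RNP-IPs, 7.42 and 7.27 in the uninduced-labelled ones and 8.37 in total RNA. Neat1, Malat1 and Xist are all known as nuclear RNAs. Neat1 and Malat1 were above total RNA on their bright probe sets, and Xist was below it on its brightest probe set. The other Xist probe sets stayed near background. Whether location in the cell bears on these directions was not tested.

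Of these RNAs 2 were called, Oip5os1 and Mir22hg, both lower in the induced-labelled RNP-IPs, so 0 of 28 were called higher and 2 lower, beside 1.38% and 2.65% of genes. Oip5os1, known as Cyrano, read log2 7.12 and 7.03 in the induced-labelled RNP-IPs, 8.94 and 9.13 in the uninduced-labelled ones and 7.91 in total RNA, a difference of -1.96 (SE 0.10, limma adjusted p = 0.118) on its probe set of highest mean, 1428411_at. Its 2 other probe sets were not called and went opposite ways. On 1430989_a_at it read 7.78 and 8.35 in the induced-labelled RNP-IPs, 7.11 and 7.12 in the uninduced-labelled ones and 7.15 in total RNA, a difference of 0.95 (SE 0.24, limma adjusted p = 0.362) with no overlap of the groups. On 1437774_at it read 5.66 and 5.90 in the induced-labelled RNP-IPs, 6.97 and 6.71 in the uninduced-labelled ones and 5.13 in total RNA, a difference of -1.06 (SE 0.15, limma adjusted p = 0.211). The direction for Oip5os1 thus depends on the probe set. Mir22hg, the host transcript of a microRNA, read 7.28 and 8.42 in the induced-labelled RNP-IPs, 9.55 and 9.84 in the uninduced-labelled ones and 9.12 in total RNA, a difference of -1.85 (SE 0.49, limma adjusted p = 0.378), and its call was lost without RNP-IP 1 labelled induced and without either RNP-IP labelled uninduced.

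**Figure D4:**
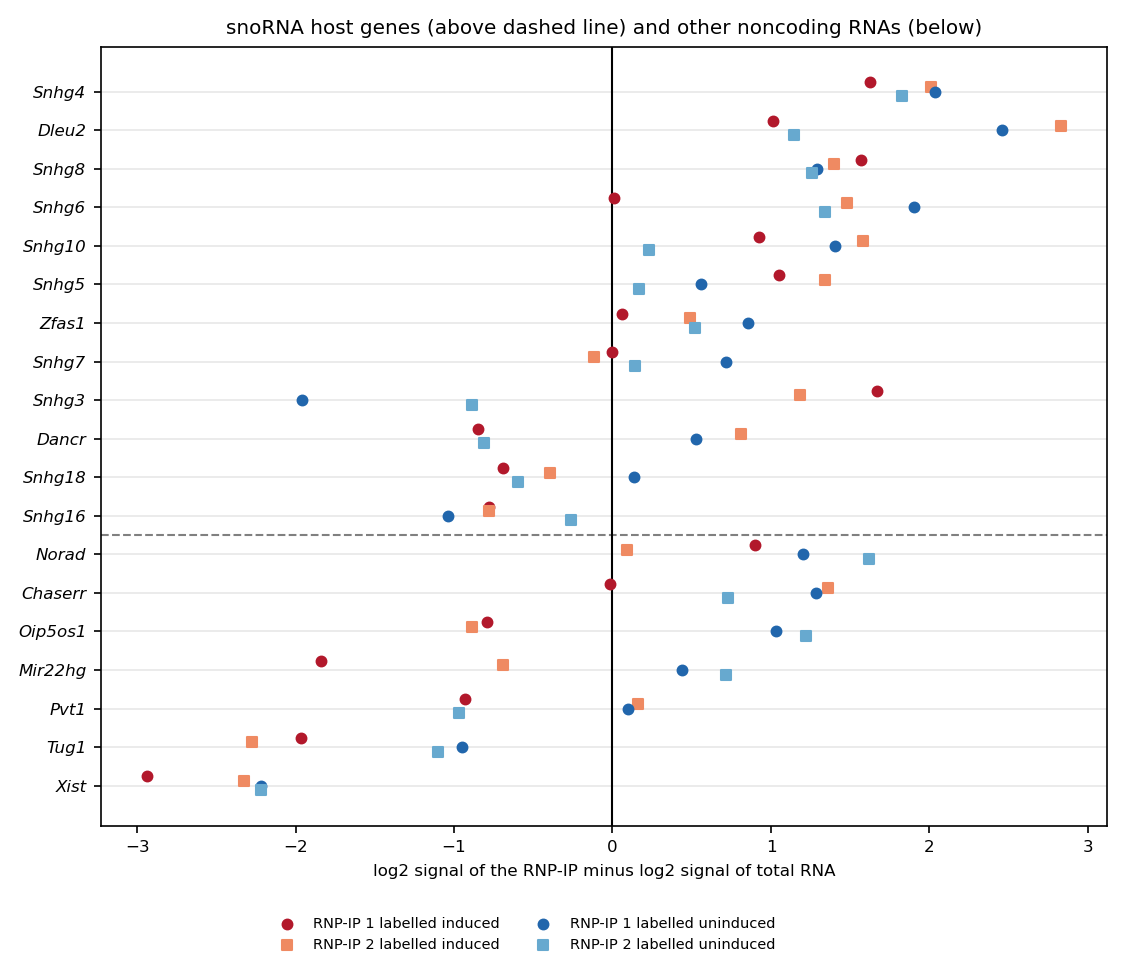
Log2 signal of each RNP-IP minus that of total RNA (x axis) for the 12 bright snoRNA host genes outside the members (above the dashed line) and 7 bright other noncoding RNAs (below it), each through its probe set with the highest mean. Snhg4 and Snhg8 lie right of 0 in all 4 RNP-IPs and Tug1 and Xist left of it, while Snhg3 and Oip5os1 split by labelled group in opposite directions, Oip5os1 on the probe set drawn (1428411_at) but not on 1430989_a_at.

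Genes that work with the members were counted in the same way, each read as its mRNA and not as protein. Of the 19 measured mRNAs of paraspeckle proteins, the partners of Neat1, 9 were above and 3 below total RNA in all 4 RNP-IPs. Between the labelled groups 0 were called higher and 1 lower. Over all genes these shares were 20% above, 21.3% below, 1.38% called higher and 2.65% called lower, which holds for each list that follows. The gene called was Rbm14, with a log2 difference of -1.83 (SE 0.59, limma adjusted p = 0.455), a call that was lost without RNP-IP 1 labelled induced and without either RNP-IP labelled uninduced. Of the 19 measured mRNAs of nuclear speckle proteins, the partners of Malat1, 2 were above and 5 below total RNA in all 4 RNP-IPs. Between the labelled groups 2 were called higher and 1 lower. The splicing factor mRNAs Srsf2 (log2 difference 1.85, SE 0.21, limma adjusted p = 0.176) and Rbm25 (2.24, SE 0.49, limma adjusted p = 0.308) were called higher, and Son, a scaffold of speckles, lower (-1.97, SE 0.28, limma adjusted p = 0.213). The call of Rbm25 was lost without either RNP-IP labelled induced.

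Of the 8 measured box C/D snoRNP protein genes 0 were above and 4 below total RNA in all 4 RNP-IPs, and Znhit3, an assembly factor, was called higher (log2 difference 1.99, SE 0.29, limma adjusted p = 0.212), with 0 called lower. Above and below total RNA were 1 and 4 of the 9 measured nonsense-mediated decay factors, 4 and 2 of the 16 non-ribosomal mRNAs of the terminal oligopyrimidine class, 0 and 6 of the 15 genes of nuclear exosome, export and retention, and 1 and 1 of the 12 imprinted protein-coding genes of the Meg3, H19 and Kcnq1ot1 domains. No gene of these 4 lists was called between the labelled groups. The median log2 difference was -0.73 for the exosome and export genes and lay between -0.06 and 0.12 for the other 3 lists, beside -0.11 over bright genes.

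The genes next to the members were looked up after the members' values had been seen, as the nearest 2 measured coding genes on each side of Neat1, Malat1, Gas5 and Snhg1. Of these 12 genes 1 was above and 6 below total RNA in all 4 RNP-IPs and 5 were mixed, beside 20% above and 21.3% below over all genes. Neat1 and Malat1 lie side by side and share their neighbours. Of these Ltbp3 read log2 9.08 and 10.71 in the induced-labelled RNP-IPs, 11.05 and 10.65 in the uninduced-labelled ones and 11.81 in total RNA. Ltbp3, Znrd2 and Frmd8 were below total RNA in all 4 RNP-IPs, with mean log2 differences of -1.44, -1.27 and -0.78, while Slc25a45 was above it in 3 of 4 (mean 0.07). Beside Snhg1, Slc3a2, Wdr74 and Stx5a were below it in all 4, and Chrm1, near background, was above it in 2. Beside Gas5, Serpinc1 was above total RNA in all 4 and Zbtb37 in 1, both near background, Cenpl in 1 and Klhl20 in 2. None of the neighbours was called between the labelled groups.

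Among 6400 genes with a mean log2 of at least 6, those whose centred values over the 5 arrays came closest to Neat1 were Klhl28, Rasl11b, Ccpg1, Zfp839 and Zfp950, with root mean square differences of 0.40 to 0.59 on the log2 scale. Klhl28 read log2 7.10 and 6.47 in the induced-labelled RNP-IPs, 7.05 and 8.99 in the uninduced-labelled ones and 5.31 in total RNA. As in Neat1, RNP-IP 2 labelled uninduced was the highest and total RNA the lowest. With 5 arrays this likeness is a description.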

How the data were processed

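RNA from NIH/3T3 cells was measured on 5 Affymetrix mouse arrays. The authors labelled it by two-cycle amplification, normalized signals by RMA (version not given in the sources used here) and deposited log2 values of 45101 probe sets, which were used as they stand. Values below about log2 5 hold little signal, and RMA compresses folds there. Gene names came from the array annotation, with symbols updated from RefSeq, and the suffixes _s_at and _x_at mark probes that can read related sequences.

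limma 3.58.1 in R 4.3.3 was fitted to all probe sets, with 3 groups for the labelled RNP-IPs and 2 groups for the comparison of the methods, and p-values were adjusted over all probe sets. The script was tested on simulated data. Where a gene had several probe sets, the one of highest mean stood for it. The named genes were every member probe set, Hnrnpd, and for each list up to 3 called genes in each direction. For noncoding lists some of those farthest from total RNA were added, and Snhg5, whose first bases are shown. The 5 genes most like Neat1 were also named. Members, lists and tests were chosen with earlier results of these data known. Alternatives were the scaling, filters, moderation, threshold, a replicate block and leaving out each RNP-IP. Scanned images and presence calls were not used.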

Additional observations from a re-analysis of the deposited data

Results flagged for a closer look

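The probe set 1455904_at is annotated to both Gas5 and the snoRNA Snord47 inside it, so it is outside the member probe sets and in no comparison above. It read log2 7.20 and 7.79 in the induced-labelled RNP-IPs, 6.03 and 5.16 in the uninduced-labelled ones and 7.56 in total RNA. Both induced-labelled RNP-IPs were above both labelled uninduced, which drew attention to it, and the difference was not tested. The Gas5 probe sets above it in signal, 1419291_x_at and 1449410_a_at, were not higher in the induced-labelled RNP-IPs.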

How the results depend on the processing

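The number of called members, 1 between the labelled groups, was 0 at an adjusted p under 0.05 and 1 to 4 without single RNP-IPs. Without RNP-IP 2 labelled induced Malat1 1436202_at was added, and without RNP-IP 1 labelled uninduced Malat1 1418188_a_at, Malat1 1418189_s_at and Neat1 1428083_at. Over all probe sets 1415 were called, 0 at an adjusted p under 0.05, and 1272 in the comparison of the methods, 0 at an adjusted p under 0.05 and 754 to 1635 without single RNP-IPs. Between the labelled groups such a fit leaves 1 group with 1 array, assumed to vary like the other group. At an adjusted p under 0.05 and any fold, limma found 355 probe sets between the labelled groups among the 12175 bright ones and 0 under every other alternative. In the comparison of the methods it found 70 with median centring, 40 with cyclic loess, 328 among the 15000 brightest, 515 among the bright ones and 0 otherwise. None of these was a member.

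Same-numbered RNP-IPs deviated in opposite directions (correlation -0.50 over all probe sets), so the numbers were not used as pairs in the main fits. Whether same-numbered RNP-IPs were made together is not given by the labels, and this correlation cannot settle it. With a replicate block between the labelled groups 654 probe sets were called, 1 of them a member, Malat1 1429060_at (limma adjusted p = 0.491). In the comparison of the methods total RNA then formed a block of its own. This takes total RNA out of the contrast, so that fit only repeats the one between the labelled groups. A crossed block, added after seeing the data, called 1615. The calls of Snhg3, Mir22hg, Rbm14, Rbm25, Son and Znhit3 were lost with the replicate block.

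Between the labelled groups the sign turned for Malat1 1452378_at (-0.98 to 1.08 without single RNP-IPs), Malat1 1418189_s_at (-2.77 to 0.41) and Gas5 1424843_a_at (-0.37 to 0.38, and -0.0020 with median centring). Read through its probe set with the largest difference, Meg3 was at 0.41. In the comparison of the methods it turned for Neat1 1428083_at (-0.30 to 0.82), Malat1 1436202_at (-0.90 to 0.60) and Gas5 1419291_x_at (-0.14 to 0.30). For Gas5 1419291_x_at the replicate block gave -0.44, which is the difference between the labelled groups, without total RNA. The sign also turned through the probe set with the largest difference for Gas5 (-1.17) and Meg3 (0.44). None of these probe sets was called above, and the cause was not tested. The count of member probe sets above total RNA in all RNP-IPs used, 13, was 13 to 18 under the alternatives. Where an alternative used fewer RNP-IPs, this count could only stay or rise, so those alternatives do not check it. The number of arrays limits the precision.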
